A study of Mus musculus with 6 samples.

Results

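The comparison set 2 RNA-seq libraries of the mouse infrapatellar fat pad, fat tissue of the knee joint lying under the patella, against 2 libraries of the rectus femoris, a thigh muscle, which together are 4 of the 6 libraries in the series. Libraries were assigned by the label that names the tissue under treatment, since the source and tissue labels call every library fat pad. The series title gives female mice, and the labels used here give no strain, age or genotype. Both fat pad titles carry the name of letrozole, an aromatase inhibitor, and no muscle title does, so any effect of the drug and the difference between tissues cannot be told apart. The fat pad titles also end in the word combined, and all 4 libraries carry 1 batch label. The codes that open the titles, which the labels do not explain, differ between the tissues, so any difference in handling that they stand for cannot be told apart from the tissue either. No label ties the 2 libraries of a tissue to different mice. The authors' TPM data are named as library 1 against library 2 within each tissue, for the fat pad as groups. Whether the 2 libraries of a tissue were replicates or different conditions is therefore not known. All p-values below rest on the spread between such a pair, which may be technical or a difference in condition.

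Adipocytes store triglyceride in a droplet coated by perilipins and release it through lipases, and they secrete hormones and proteins such as adiponectin and adipsin. The infrapatellar fat pad lies inside the knee capsule and is covered by synovium, whose lining cells make lubricin and hyaluronan and lie among macrophages. A fast muscle fibre holds sarcomeres of actin and myosin, releases calcium from the sarcoplasmic reticulum to contract, and makes ATP from creatine phosphate, glycogen and glucose. Many of its proteins are muscle forms of a small gene family whose other members work in most cells.

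Genes were joined by Ensembl identifier, and 16964 were listed in both count tables. Total counts were 83132413 and 106319037 in the fat pad libraries and 56216295 and 58544836 in muscle. Levels are given as CPM, counts relative to the library's size, with sizes scaled by the trimmed mean of M-values (TMM), in the order library 1 and library 2. After low counts were filtered out, 15547 genes were tested with edgeR's quasi-likelihood test at a Benjamini-Hochberg adjusted p of 0.05. Of these, 5116 genes (32.9%) were called higher in the fat pad and 4737 (30.5%) lower. A further 5694 were not called, 593 of them with an unadjusted p under 0.05. The median log2 fold change, fat pad over muscle, was 0.14, so a list of genes is read below against these shares and this median.

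The differences were wide as well as many. At least 4-fold differences were called for 2642 genes higher and 2257 lower in the fat pad, and at least 100-fold differences for 476 and 272. The 2 fat pad libraries both stood above both muscle libraries, or both below, for 13122 genes (84.4%). When libraries were scaled by total counts in place of TMM, the median fold change moved by 0.50 and the split of calls moved from 51.9% higher to 66% higher, so differences of that size depend on the scaling. Among the genes named below, Arntl, Asph, Atp5b, Clic5, Esr1, Mest, Mtm1 and Pdgfra were called with TMM and not with total counts. The 10 most abundant genes took 19.1% and 18.5% of all counts in the fat pad and 30.1% and 27.4% in muscle.

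**Figure D1:**
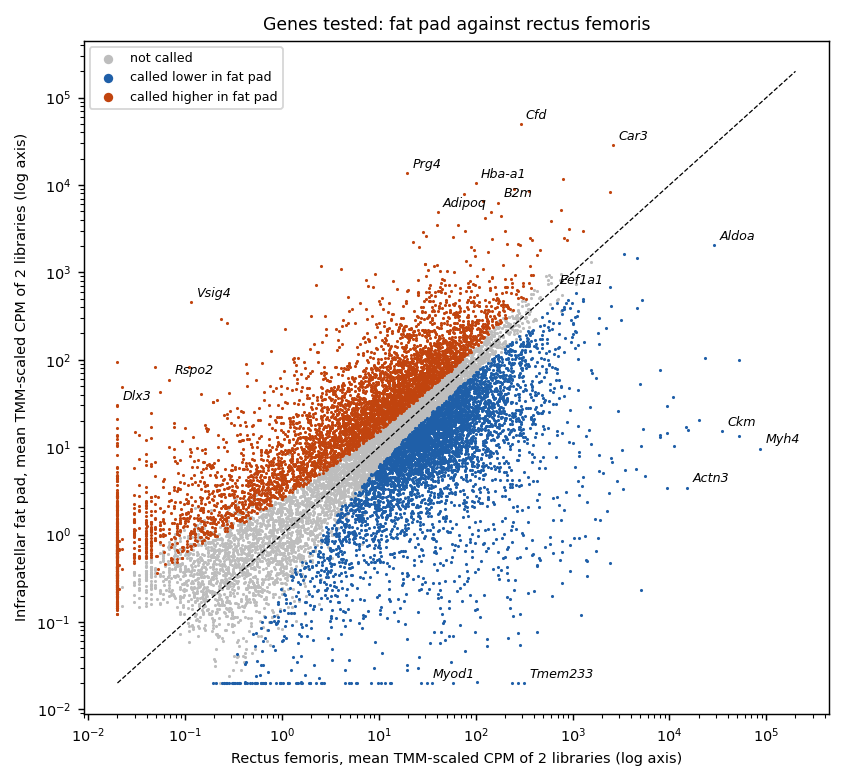
Mean TMM-scaled CPM of each of the 15547 tested genes in the rectus femoris (horizontal) and the fat pad (vertical), both on log axes, with genes called higher in red, lower in blue and not called in grey, equal levels on the dashed line, and means under 0.02 CPM drawn at 0.02. The called genes lie on both sides of the line over the whole range of levels, with Cfd, Car3 and Prg4 at the top and Myh4 at the far right.

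Adipocyte genes led the fat pad libraries. The 15 most abundant genes called at least 4-fold higher there were Cfd, Car3, Prg4, Scd1, Hba-a1, Fabp4, Gpx3, Hba-a2, Hbb-bs, B2m, Dcn, Lyz2, Adipoq, H2-D1 and Trf. They were taken from genes whose libraries did not overlap between the 2 tissues, so that separation was part of the choice. Summed, the counts of the 15 equalled 17.6% of the TMM-scaled size of each fat pad library and 0.484% and 0.717% in muscle. That size is above total counts in the fat pad (TMM factors 1.22 and 1.16) and below them in muscle (0.808 and 0.872). These percents are therefore not shares of all counts. Car3, the carbonic anhydrase of fat and slow muscle, stood at 27078 and 29796 CPM in fat pad libraries against 2035 and 3141 in muscle. Both fat pad libraries were high, and the log2 fold change was 3.46 ± 0.39 (SE; edgeR adjusted p = 0.000347). Fabp4, the fatty acid carrier of adipocytes, was counted at 9009.6 and 9129 CPM in fat pad libraries against 196 and 301 in muscle. Its log2 fold change was 5.19 ± 0.37 (SE; edgeR adjusted p = 5.34e-05). Scd1, which makes monounsaturated fatty acids, stood at 9647 and 14083 CPM in fat pad libraries against 359.6 and 1214 in muscle. Muscle library 2 held the higher muscle level of Scd1, as it did for Cfd (139 and 440.2 CPM in muscle), Adipoq (21.1 and 59.8) and Fabp4, all far under the fat pad.

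Of the adipocyte identity list, 20 of 22 tested members were called higher in the fat pad and 1 lower, with a median log2 fold change of 4.01. Retn, which encodes the hormone resistin, stood at 1878 and 2597 CPM in fat pad libraries against 12.8 and 32.2 in muscle. Cidec, which fuses lipid droplets, stood at 2808 and 2347 CPM in fat pad libraries against 17.1 and 43.7 in muscle. In both, the muscle libraries were low and did not overlap the fat pad. Pparg, the nuclear receptor that drives fat cell formation, had a log2 fold change of 4.71 ± 0.29 (SE; edgeR adjusted p = 3.17e-05) on 207 and 161 CPM in the fat pad and 5.64 and 8.42 in muscle. Mest was the 1 member called lower, at 1.7 and 3.5 CPM in fat pad libraries against 7.49 and 7.17 in muscle, a call that was lost without muscle library 1 (edgeR adjusted p = 0.0575) or muscle library 2 (edgeR adjusted p = 0.052). Gpd1, the cytosolic glycerol 3-phosphate dehydrogenase, was not called at 718 and 740.1 CPM in the fat pad and 1187 and 1004 in muscle.

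Lipid handling genes divided between the tissues. Among lipid droplet and lipolysis genes 13 of 17 tested members were called higher in the fat pad and 3 lower. Among lipogenesis genes 10 of 18 tested members were called higher in the fat pad and 2 lower. Cidea, a droplet protein of active fat, stood at 169 and 284 CPM in fat pad libraries against 1.56 and 0.607 in muscle. Thrsp, which responds to carbohydrate feeding, stood at 1521 and 3514 CPM in fat pad libraries against 35.6 and 80.4 in muscle. Both fat pad libraries were high for these 2 genes, and Thrsp was higher in fat pad library 2. Pnpla3, a droplet lipase relative, differed most between the fat pad libraries, at 96.8 and 614 CPM against 19.8 and 39.9 in muscle. Lower in the fat pad were Gpam and Lpin1, enzymes of glycerolipid synthesis, with log2 fold changes of -2.86 and -1.49, and Plin4 with -1.31, though Plin4 was not called when all 6 libraries were fitted together. Fasn, the fatty acid synthase, was not called: fat pad libraries held 583 and 1238 CPM and muscle libraries 168 and 900.2, and these ranges overlapped. Without muscle library 2 it was called higher, with a log2 fold change of 2.46.

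The transcription factors of fat formation did not move together. Of 19 tested, 4 were called higher and 9 lower, or 4 lower without muscle library 2 and 4 with total counts. The higher ones were Pparg, Cebpa, Cebpb and Ebf1, with Cebpa at 132 and 142 CPM in fat pad libraries against 11 and 24.1 in muscle. Cebpb, at 45.1 and 63 CPM in fat pad libraries against 16.1 and 17.9 in muscle, went the other way with limma on log2(TPM + 1), with a log2 fold change of -1.23 against 1.67 in counts. Ebf1 stood at 106 and 106 CPM in fat pad libraries against 10.7 and 16.3 in muscle, high in both fat pad libraries. Among the lower ones, Rxra, which pairs with Pparg on DNA, stood at 33.6 and 30.1 CPM in fat pad libraries against 248 and 210.5 in muscle. Ppard, the delta receptor of the same family, stood at 1.22 and 1.4 CPM in fat pad libraries against 35.7 and 35.8 in muscle, low in both fat pad libraries.

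Fatty acid oxidation genes did not move as a block. Of them, 11 of 20 tested members were called higher in the fat pad and 5 lower, with a median of 0.74. Acsl1, which activates fatty acids, stood at 1341 and 1048 CPM in fat pad libraries against 289 and 435 in muscle. Etfb, an electron carrier of this pathway, stood at 651 and 705 CPM in fat pad libraries against 167 and 152 in muscle. Both were higher in both fat pad libraries. Ucp3, the uncoupling protein of muscle, stood at 15.6 and 15.1 CPM in fat pad libraries against 194 and 181 in muscle, lower in both fat pad libraries. Of 13 thermogenic genes tested, 4 were called higher and 3 lower, or 5 lower without fat pad library 1. With the 4 libraries the thermogenic shares were 30.8% higher and 23.1% lower, near the 32.9% and 30.5% of all genes tested. Ucp1, which defines brown fat, was near 0 throughout, at 0.0787 and 1.33 CPM in fat pad libraries against 0.903 and 0 in muscle.

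Several abundant fat pad genes belonged to no adipocyte list. Gpx3, a secreted glutathione peroxidase, stood at 7173 and 9823 CPM in fat pad libraries against 342 and 365 in muscle, and its log2 fold change was 4.59 ± 0.34 (SE; edgeR adjusted p = 5.78e-05). B2m, the light chain of MHC class I, was at 5766 and 6747 CPM in fat pad libraries against 183 and 156 in muscle. H2-D1, a class I heavy chain, stood at 4441 and 4461 CPM in fat pad libraries against 193 and 175 in muscle. The muscle libraries were low for all 3, although reads of H2-D1 may be split with near-identical class I genes. Lyz2, the lysozyme of myeloid cells, stood at 3867 and 6010.1 CPM in fat pad libraries against 157 and 128 in muscle. Trf, transferrin, was at 4277 and 4043 CPM in fat pad libraries against 76.9 and 172 in muscle, but 63.5% of its exonic bases are shared with another annotated gene, so its value is uncertain.

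Genes of contraction and energy supply led the muscle libraries. The 15 most abundant genes called at least 4-fold lower in the fat pad were Myh4, Acta1, Atp2a1, Ckm, Aldoa, Tpm1, Tnnt3, Mylpf, Actn3, Pvalb, Pygm, Ube2c, Eno3, Myl1 and Mybpc2. In muscle they made up 42.8% and 35.8% of normalised counts, in the fat pad 0.205% and 0.283%. Acta1, skeletal muscle actin, stood at 98 and 100.4 CPM in fat pad libraries against 58286 and 46910.2 in muscle, for a log2 fold change of -9.05 ± 0.49 (SE; edgeR adjusted p = 2.30e-05). Atp2a1, the calcium pump of fast fibres, stood at 18.9 and 7.63 CPM in fat pad libraries against 55025 and 48190.5 in muscle. Both muscle libraries were high for these genes and the fat pad libraries low. Ckm, the muscle creatine kinase, was counted at 13.9 and 16.6 CPM in fat pad libraries against 39019 and 30634 in muscle, for a log2 fold change of -11.16 ± 0.52 (SE; edgeR adjusted p = 1.68e-05). Aldoa, aldolase A, kept the highest fat pad level of the 15, at 1660.0 and 2439 CPM in fat pad libraries against 32083 and 25768 in muscle.

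**Figure D2:**
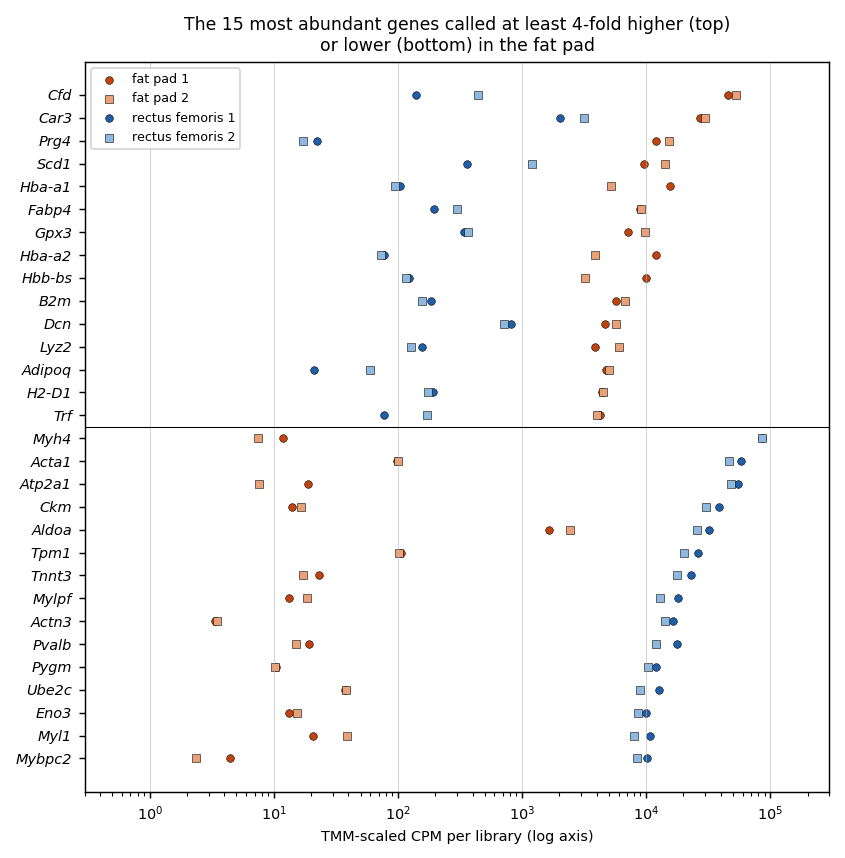
TMM-scaled CPM (log axis) in each library of the 15 most abundant genes called at least 4-fold higher in the fat pad (top) and the 15 called at least 4-fold lower (bottom), 1 point per library. The 30 genes were chosen so that the 2 fat pad points lie on 1 side of the 2 muscle points. The haemoglobin genes differ most between the fat pad libraries.

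Ube2c, a cell division enzyme, was an exception among these genes by its function. It stood at 37.4 and 38.1 CPM in fat pad libraries against 12771 and 8909 in muscle, while Pcna, a DNA replication clamp and the most abundant of the other tested cell division genes, stood at 38.3 and 50.4 CPM in fat pad libraries against 22.9 and 20.4 in muscle. In GENCODE M21 (GRCm38) 74% of the exonic bases of Tnnc2, the fast troponin C, lie under Ube2c exons on the opposite strand. Tnnc2 itself stood at 4.55 and 6.26 CPM in fat pad libraries against 2167 and 1551 in muscle, and without a stated strand setting the reads of Ube2c and Tnnc2 cannot be told apart.

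Promoter sequence was compared between these 2 sets of 15. Their members were chosen by the direction of their calls, and shared regulation was not tested. RefSeq promoter windows (GRCm38.p6), taken as the 250 bases before the start of transcription, were found for 13 of the muscle genes (16 windows) and 9 of the fat pad genes (9 windows). The letters CAGCTG, an E-box core that reads the same on both strands, were in 7 of the 16 muscle windows, in 1 of the 9 fat pad windows and in 13% of all 32851 windows. The letters TATAAA, searched on both strands, were in 3 and 2 of these windows and in 12.4% of all. Myh4 and Ckm show the E-box letters in muscle genes, and Adipoq is the 1 fat pad gene with them, at 61 bases before its start against 67 in Myh4 and 249 in Ckm. All 3 windows lie on the plus strand, Myh4 at chr11:67237562-67237811, Ckm at chr7:19410844-19411093 and Adipoq at chr16:23146286-23146535, and capitals mark CAGCTG. A match describes these letters only.
Myh4: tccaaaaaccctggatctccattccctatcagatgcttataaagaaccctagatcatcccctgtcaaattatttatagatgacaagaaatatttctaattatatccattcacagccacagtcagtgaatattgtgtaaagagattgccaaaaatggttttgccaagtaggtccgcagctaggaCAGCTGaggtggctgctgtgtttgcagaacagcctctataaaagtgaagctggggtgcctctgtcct
Ckm: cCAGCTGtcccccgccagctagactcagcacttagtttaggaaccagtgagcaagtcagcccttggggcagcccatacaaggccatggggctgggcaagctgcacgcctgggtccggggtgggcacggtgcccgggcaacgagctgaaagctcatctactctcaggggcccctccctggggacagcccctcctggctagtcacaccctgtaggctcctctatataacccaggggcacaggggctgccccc
Adipoq: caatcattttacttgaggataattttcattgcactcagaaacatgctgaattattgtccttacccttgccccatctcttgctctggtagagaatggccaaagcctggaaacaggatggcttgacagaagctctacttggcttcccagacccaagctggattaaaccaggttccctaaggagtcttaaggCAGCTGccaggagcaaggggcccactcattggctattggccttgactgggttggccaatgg

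The levels behind these sequences were far apart. Myh4, the myosin of the fastest fibres, was counted at 11.8 and 7.44 CPM in fat pad libraries against 86669.5 and 85679.5 in muscle. Adipoq, adiponectin, stood at 4727 and 5030.0 CPM in fat pad libraries against 21.1 and 59.8 in muscle. The muscle libraries were high for Myh4, as for Ckm, and the fat pad libraries for Adipoq. All 16 fast contractile genes, all 30 of the Z-disc and scaffold list and all 22 of excitation-contraction coupling were called lower in the fat pad, against 30.5% of all genes tested. Their median log2 fold changes were -9.95, -8.94 and -9.67. The summed level of the fast contractile genes was 413 and 414 CPM in the fat pad libraries and 348149 and 299529 CPM in muscle.

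Among Z-disc and scaffold genes, the smallest difference was that of Cryab, a small heat shock protein of the Z-disc, at 86.3 and 145 CPM in fat pad libraries against 642 and 655 in muscle, for a log2 fold change of -2.49 ± 0.29 (SE; edgeR adjusted p = 0.000424). Neb, nebulin, which spans the thin filament, stood at 7.71 and 3.42 CPM in fat pad libraries against 3968 and 5116 in muscle. In calcium release, Ryr1, the release channel, stood at 3.65 and 2.9 CPM in fat pad libraries against 3184 and 3436 in muscle. Casq1, its calcium store protein, stood at 6.0 and 3.42 CPM in fat pad libraries against 6162 and 5063 in muscle. All 4 genes were lower in both fat pad libraries, and the fat pad level of Cryab was the highest of them. Asph and Mtm1 differed least in that list, with log2 fold changes of -1.24 and -0.91, and Mtm1 was no longer called without muscle library 2 (edgeR adjusted p = 0.0676).

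Slow fibre genes were sparse in this muscle too. Of 12 tested, 8 were called lower and 1 higher in the fat pad, and 5 lower without muscle library 2. Myh7, the slow myosin, stood at 0.177 and 0.227 CPM in fat pad libraries against 1.61 and 5.44 in muscle. Mybpc1, the slow form of myosin-binding protein C, stood at 0.886 and 0.422 CPM in fat pad libraries against 1648 and 1867 in muscle. Without muscle library 2 the call on Myh7 was lost (edgeR adjusted p = 0.0549). Mybpc1 was the 1 abundant slow gene in muscle, and Tpm3, a tropomyosin also made outside muscle, was the 1 called higher in the fat pad, a log2 fold change of 1.88 ± 0.19 (SE; edgeR adjusted p = 0.000218).

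Fuel genes followed the muscle as well, but not gene by gene. In the glycolysis and glycogen list 7 of 31 tested members were called higher in the fat pad and 20 lower, with a median of -3.41. Pygm, the muscle glycogen phosphorylase, stood at 10.4 and 10.2 CPM in fat pad libraries against 11915 and 10347 in muscle. Its liver form Pygl stood at 139.9 and 145 CPM in fat pad libraries against 7.97 and 19 in muscle. Pygm was high in both muscle libraries and Pygl in both fat pad libraries. Slc2a4, the insulin-responsive glucose carrier of both tissues, stood at 141 and 131 CPM in fat pad libraries against 733 and 696 in muscle. Ldha, lactate dehydrogenase A, differed less, at 1254 and 1694 CPM in fat pad libraries against 4912 and 4411 in muscle, for a log2 fold change of -1.66 ± 0.29 (SE; edgeR adjusted p = 0.00233). Gapdh was called lower in the fat pad, but its reads may be split with many near-identical copies and its level is uncertain.

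Pairs of related genes, 1 taken as the muscle form and 1 as the general form, differed in balance between the tissues. Some pairs, such as Des and Vim, are related genes and not forms of 1 protein. Fabp4, taken as a general form, is itself the carrier of adipocytes. Of 52 pairs, 50 had both genes tested, with 49 distinct muscle forms, as Pfkm was used more than once. The muscle form was called lower in the fat pad in 47 and not called in 3 (Cox8b, Fhl1 and Fxyd1). Of these, Cox8b was called higher without fat pad library 1 or muscle library 1 (log2 fold changes of 0.85 and 1.02), and Fhl1 was called lower without the same libraries (-1.61 and -1.44). The general form was called higher in 28, lower in 8 and not called in 14, and in 25 pairs the muscle form was lower and the general form higher. Shares below are CPM per kilobase of exon of the muscle form over that of the pair. The share was lower in both fat pad libraries than in both muscle libraries in all 50 pairs, and it passed from under 50% to over 50% in 37.

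The translation factor pair Eef1a2 and Eef1a1 held 0.0494% and 0.0769% in the fat pad libraries and 72.2% and 71.9% in muscle of the muscle form, Eef1a2. Eef1a1 itself was not called, at 643 and 644 CPM in fat pad libraries against 676 and 629 in muscle, so the share moved with Eef1a2. Rpl3l, the muscle form of ribosomal protein L3, made up 2.05% and 3.12% in the fat pad libraries and 97.8% and 97.6% in muscle. These shares were low in both fat pad libraries and high in both muscle libraries. In cytochrome oxidase, Cox6a2 made up 0.176% and 0.354% in the fat pad libraries and 97% and 96.2% in muscle of its pair with Cox6a1, and Cox7a1 2.62% and 2.88% in the fat pad libraries and 70.4% and 66.9% in muscle of its pair with Cox7a2. Cox8b made up 50% and 50.3% in the fat pad libraries and 92.5% and 88.6% in muscle, so its fat pad share was near even, and the gene itself was not called, at 264 and 345 CPM in fat pad libraries against 229 and 152 in muscle. Slc25a4, the muscle ADP and ATP carrier, made up 22.8% and 19.9% in the fat pad libraries and 98.6% and 98.2% in muscle of its pair with Slc25a5.

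Among fuel and signalling enzymes, Pgam2 made up 14.7% and 14.8% in the fat pad libraries and 99.8% and 99.7% in muscle of phosphoglycerate mutase, and Eno3 10.3% and 7.99% in the fat pad libraries and 99.7% and 99.7% in muscle of its pair with Eno1. Ckm made up 14.9% and 15.1% in the fat pad libraries and 100% and 99.9% in muscle of its pair with Ckb, the brain form of creatine kinase. The carriers Fabp3 and Fabp4 divided the tissues, with Fabp3 at 0.292% and 0.504% in the fat pad libraries and 80.6% and 70.8% in muscle. Pairs that the fat pad also filled with the muscle form were fewer: Hk2 made up 63% and 62.4% in the fat pad libraries and 95.5% and 95.6% in muscle of its pair with Hk1, and Slc2a4 89.1% and 91.4% in the fat pad libraries and 98.5% and 97.9% in muscle of its pair with Slc2a1. In 7 pairs the muscle form was over 50% in all 4 libraries, and in 3 it was under 50% in all 4. Aldoa with Aldoc was among the former. Aldoc held only 0.214 and 0.341 CPM per kilobase in the fat pad libraries and 0.189 and 0.078 in muscle. The share of that pair therefore does not set a muscle form against a general one.

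**Figure D3:**
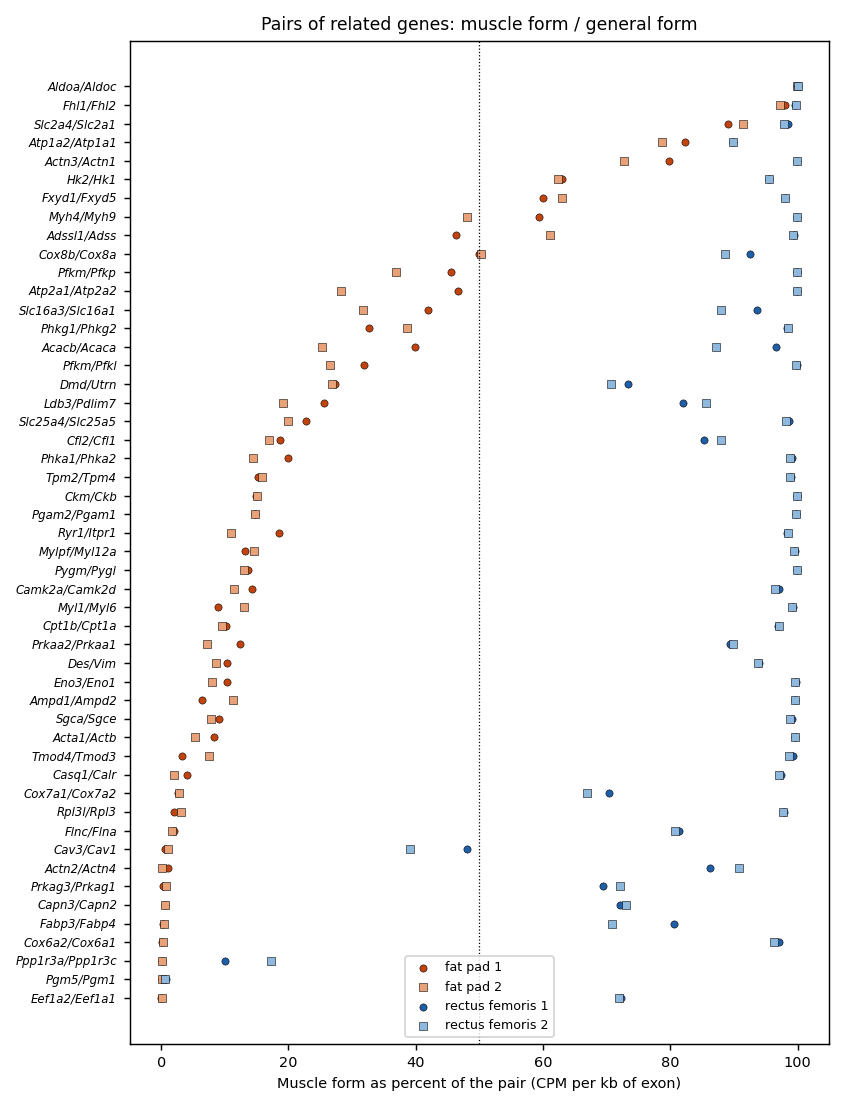
Muscle form as a percent of each of 50 pairs (CPM per kilobase of exon; horizontal axis), 1 point per library, with pairs ordered by their mean fat pad share and the dotted line at 50%. The fat pad points lie left of the muscle points in all 50 pairs, from Eef1a2/Eef1a1 at the bottom to Aldoa/Aldoc at the top, where all 4 libraries lie close to 100%.

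Mitochondrial genes did not share 1 direction. Of 23 tricarboxylic acid cycle genes tested with edgeR, 0 were called higher and 14 lower, with a median of -0.86. With total counts they were 6 and 9, with a median of -0.35. Higher calls numbered 3 without fat pad library 1, 2 with DESeq2 and 2 at an unadjusted p under 0.05. Ogdh, a subunit of the 2-oxoglutarate dehydrogenase complex, stood at 176 and 140.2 CPM in fat pad libraries against 931 and 984 in muscle. Cs, citrate synthase, stood at 199 and 199 CPM in fat pad libraries against 980.3 and 1024 in muscle. Both were lower in both fat pad libraries. Of 78 nuclear genes of the respiratory chain and ATP synthase, 18 were called higher and 15 lower, below the shares of all genes on both sides. With total counts, 45 were called higher and 10 lower, beside 6750 and 3478 of all 15547 genes, so the balance of this list depends on the scaling. Atp5b, the beta subunit of ATP synthase, stood at 1480.4 and 1794 CPM in fat pad libraries against 3423 and 3311 in muscle. Ndufa1, a small subunit of complex I, went the other way, at 502 and 542 CPM in fat pad libraries against 99.4 and 76.2 in muscle.

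Of 75 cytosolic ribosome genes, 48 were called lower and 7 higher in the fat pad, or 4 higher without muscle library 2 and 32 lower without muscle library 1. With total counts 31 were lower and 13 higher. Their median of -0.90 became -0.39 under total-count scaling. Reads of these genes may be split with near-identical copies, so single values are uncertain. The immunoproteasome subunits Psmb8 and Psmb9, which serve antigen presentation, stood apart from the other proteasome genes, Psmb8 at 208 and 221 CPM in fat pad libraries against 18.2 and 9.11 in muscle and Psmb9 at 53.3 and 41.3 CPM in fat pad libraries against 7.0 and 5.15 in muscle. Of 34 proteasome genes tested, 14 were called higher and 4 lower, or 9 higher without muscle library 2, and 24 higher and 2 lower with total counts.

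Synovial genes were abundant in the fat pad. Of 18 tested, 14 were called higher and 1 lower, with a median of 5.14. Htra4, a secreted serine protease, stood at 1272 and 627 CPM in fat pad libraries against 13.5 and 4.72 in muscle. Ugdh, which makes the sugar nucleotide of hyaluronan, stood at 569.8 and 369.9 CPM in fat pad libraries against 17.3 and 20.8 in muscle. Hbegf, an epidermal growth factor family ligand, stood at 721 and 565 CPM in fat pad libraries against 17.9 and 13 in muscle. For all 3 the muscle libraries were low, and fat pad library 1 was the higher of its pair. Clic5 was the member called lower, with a log2 fold change of -1.20 ± 0.30 (SE; edgeR adjusted p = 0.0118). In bulk RNA, fewer cells of a type and less RNA per cell cannot be told apart.

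Matrix genes divided by family. Of 21 collagen genes, 18 were called lower in the fat pad and 1 higher, a median of -1.99. Col1a2, a chain of type I collagen, stood at 319 and 188 CPM in fat pad libraries against 1197 and 819.7 in muscle. Col15a1, a basement membrane zone collagen, stood at 2.61 and 4.02 CPM in fat pad libraries against 125 and 137 in muscle. Col8a1 was the 1 called higher, at 18.7 and 18.5 CPM in fat pad libraries against 13.5 and 10.8 in muscle, and leaving out any 1 of the 4 libraries ended that call (edgeR adjusted p from 0.0535 to 0.252). The small proteoglycan Dcn, decorin, went the other way, at 4646 and 5684 CPM in fat pad libraries against 812 and 714 in muscle, for a log2 fold change of 2.76 ± 0.28 (SE; edgeR adjusted p = 0.000218). Fn1, fibronectin, was higher too, at 2149 and 1970.5 CPM in fat pad libraries against 289 and 285 in muscle. The tendon-related Fmod, fibromodulin, stood at 36.4 and 13.6 CPM in fat pad libraries against 505 and 344 in muscle, and 10 of 13 tenocyte genes tested were called lower. Of matrix proteases and inhibitors 11 of 22 tested members were called higher in the fat pad and 2 lower, or 4 lower without fat pad library 2. Timp1, a metalloproteinase inhibitor, stood at 62.1 and 88 CPM in fat pad libraries against 1.52 and 0.587 in muscle. Ctsk, the collagen-cutting cathepsin K, stood at 218 and 251 CPM in fat pad libraries against 22.8 and 14 in muscle.

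Of 30 proteoglycan and glycoprotein genes of the matrix, 11 (36.7%) were called higher and 11 (36.7%) lower. That is near the shares of all genes tested (32.9% and 30.5%). Their median of 0.17 changed sign in the TPM fits. Sparc, a collagen-binding secreted protein, stood at 2417 and 2504 CPM in fat pad libraries against 1012 and 632 in muscle. Fbln5, an elastic fibre protein, stood at 279 and 335 CPM in fat pad libraries against 27.5 and 23.5 in muscle, higher in both fat pad libraries. Eln, elastin, went the other way, at 20.3 and 27 CPM in fat pad libraries against 129 and 182 in muscle. Tnxb, tenascin X, was at 31.8 and 35.7 CPM in fat pad libraries against 188 and 236 in muscle, low in both fat pad libraries. Of cartilage genes 6 of 16 were called higher and 4 lower, or 4 higher without fat pad library 2 or without either muscle library. With the 4 libraries the cartilage shares were 37.5% higher and 25% lower, near those of all genes tested. Cytl1, a secreted protein of cartilage and other tissue, stood at 141 and 198 CPM in fat pad libraries against 2.05 and 5.44 in muscle. Col2a1, the type II collagen that defines cartilage matrix, was low and not called, at 3.73 and 1.23 CPM in fat pad libraries against 2.0 and 0.803 in muscle.

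Fibroblast and progenitor genes were mixed, as 15 of 24 tested members were called higher in the fat pad and 8 lower. Anxa3 and Procr were among the higher, with log2 fold changes of 3.25 and 2.91, and Clec3b and Thy1 among the lower, with -2.87 and -2.95. Pdgfra, the receptor used to mark mesenchymal progenitors, stood at 51.4 and 39.1 CPM in fat pad libraries against 66 and 84.4 in muscle, called lower in the fat pad. The call on Pdgfra was lost without fat pad library 2 (edgeR adjusted p = 0.0519) or muscle library 2 (edgeR adjusted p = 0.218).

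Most immune lists had more members called higher than lower in the fat pad, and the mast cell list did not. Among macrophage genes 13 of 19 tested members were called higher in the fat pad and 1 lower, among MHC class II and dendritic cell genes 9 of 14 were higher and 0 lower, and among lymphocyte genes 15 of 17 were higher and 0 lower. Lower calls in the last 2 lists numbered 0 and 0 with DESeq2, 0 and 0 at an unadjusted p under 0.05 in edgeR, and 1 and 1 with limma on log2(TPM + 1). Of 11 mast cell genes 2 were called higher and 2 lower, with a median of -0.11 that became 0.37 with total counts, against 4 higher without fat pad library 1 and 6 lower without fat pad library 2. By their median, lymphocyte genes were higher in fat pad library 1, with a median log2 ratio of library 2 to library 1 of -0.81, as were the blood and marrow genes described below. C1qc, a chain of complement C1q, stood at 521 and 834 CPM in fat pad libraries against 47.4 and 37.9 in muscle. H2-Ab1, an MHC class II chain, stood at 521 and 681 CPM in fat pad libraries against 32.9 and 33.1 in muscle. Both were higher in both fat pad libraries, and library 2 was the higher of these. Mrc1 and Cd163, markers of tissue macrophages, were not called, with Mrc1 at 31.9 and 47.9 CPM in fat pad libraries against 58 and 60.1 in muscle and Cd163 at 32.4 and 36.9 CPM in fat pad libraries against 41.7 and 41.1 in muscle. Without fat pad library 2, Mrc1 was called lower, with a log2 fold change of -0.90. Of 24 chemokine genes tested, 20 were called higher and 1 lower. Ccl6 stood at 147 and 247 CPM in fat pad libraries against 19.6 and 19.9 in muscle. Cxcl14, the 1 called lower, stood at 8.4 and 14.1 CPM in fat pad libraries against 81 and 49.5 in muscle.

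Complement genes had 15 of 21 members higher and 1 lower. Cfb, a protease of the alternative pathway, stood at 366 and 297 CPM in fat pad libraries against 15.4 and 12 in muscle, next to Cfd, whose product cleaves factor B, at 46049 and 53446 CPM in fat pad libraries against 139 and 440.2 in muscle. C3, which is cleaved by the enzyme complex that holds the factor B fragment, was not called, at 311 and 284 CPM in fat pad libraries against 177 and 329 in muscle, and its libraries overlapped.

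Genes of blood cells and marrow varied within the fat pad itself. Of erythroid genes 11 of 12 were called higher, with summed levels of 43358 and 14051 CPM in the fat pad libraries and 379.5 and 353 CPM in muscle. Of neutrophil and marrow genes 16 of 17 were called higher, with summed levels of 1894 and 275 CPM in the fat pad libraries and 14.4 and 16.4 CPM in muscle. In both lists fat pad library 1 was the higher, and library 2 over library 1 gave a median log2 ratio of -1.78 for the erythroid and -2.44 for the neutrophil list. Hba-a1, an alpha-globin gene with a near-identical copy, stood at 15647 and 5227 CPM in fat pad libraries against 104 and 95.6 in muscle. S100a8, a neutrophil protein, stood at 545 and 82.2 CPM in fat pad libraries against 2.09 and 1.9 in muscle. Prg2, an eosinophil granule protein, stood at 54.9 and 4.79 CPM in fat pad libraries, with 0 counts in muscle. Among bone and osteoclast genes 10 of 17 were called higher and 1 lower. Ibsp, a bone matrix protein, stood at 78.1 and 8.55 CPM in fat pad libraries against 0.11 and 0 in muscle. The bone list as a whole did not differ so, with fat pad sums of 1182 and 1150 CPM. Its median log2 ratio of fat pad library 2 over library 1 was -0.12, and Bglap2 stood at 88.9 and 98.9 CPM. The part of blood, marrow or bone in the other differences was not tested.

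Markers of vessels and nerve gave no common direction. Of 21 endothelial genes 8 (38.1%) were called higher and 9 (42.9%) lower, beside 32.9% and 30.5% of all genes tested. Rgcc and Gpihbp1, the latter a carrier of lipoprotein lipase on capillaries, stood higher, Rgcc at 1142 and 1335 CPM in fat pad libraries against 32.3 and 27.4 in muscle and Gpihbp1 at 249 and 263 CPM in fat pad libraries against 37.8 and 33.5 in muscle. Cdh5, the endothelial cadherin, stood at 9.79 and 9.35 CPM in fat pad libraries against 90 and 110.4 in muscle, lower in both fat pad libraries. Of 14 smooth muscle and pericyte genes 3 were called higher and 5 lower. When all 6 libraries were fitted together, edgeR called 0 of them higher and 4 lower. On the 4 libraries DESeq2 called 3 higher and 5 lower. At an unadjusted p under 0.05 in edgeR they were also 3 higher and 5 lower. Of 15 Schwann cell genes 2 were called higher and 5 lower, or 8 lower without fat pad library 2, 3 lower with all 6 libraries and 4 higher with total counts. Pmp22, a myelin protein also made in many other cells, stood at 600.1 and 756 CPM in fat pad libraries against 78.4 and 93.1 in muscle, higher in both fat pad libraries. The median of the endothelial list changed sign under total-count scaling, from -0.30 to 0.21. With TMM, shares called higher and lower were 21.4% and 35.7% of the smooth muscle list and 13.3% and 33.3% of the Schwann cell list. Both lower shares were near that of all genes tested.

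**Figure D4:**
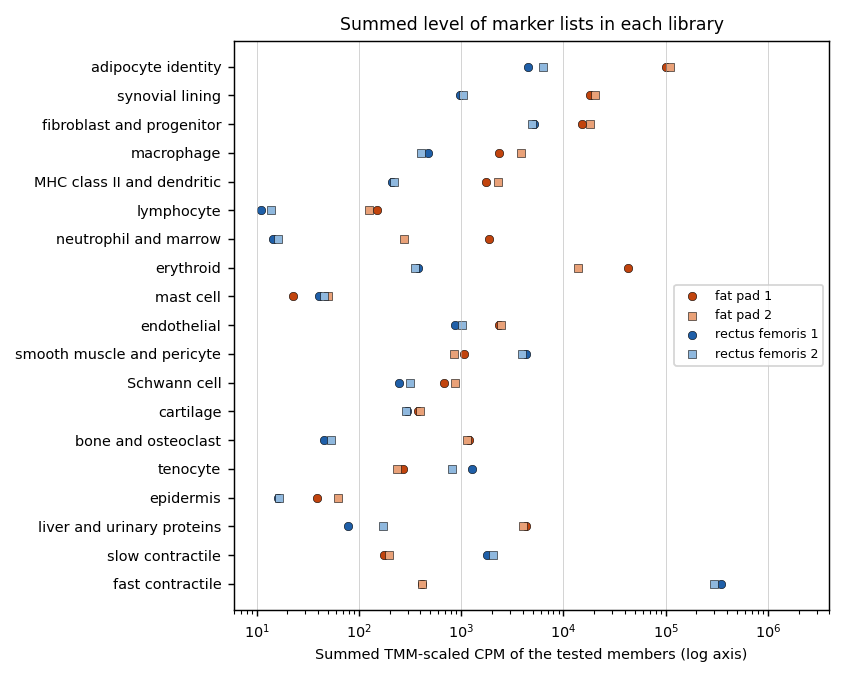
Summed TMM-scaled CPM (log axis) of the tested members of 19 lists in each library, 1 point per library. The fast contractile sum lies far right in muscle, the adipocyte, synovial, macrophage and erythroid sums lie right in the fat pad, and the fat pad libraries lie apart for neutrophil and erythroid genes.

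Some genes had counts in 1 tissue only. Of the genes tested, 427 had 0 counts in both muscle libraries and 46 had 0 in both fat pad libraries. The fat pad libraries were larger, with TMM-scaled sizes of 101622648 and 123257780 against 45398433 and 51066945 in muscle. A low level is therefore more easily read as 0 in muscle, and the part of depth was not tested. A fold against 0 is given below as a bound against 3 counts per library, for counting error only. Dlx3, a homeobox factor, stood at 28.1 and 31.9 CPM in fat pad libraries and was at least 481-fold higher there. Dlx4, its relative, was at least 164-fold higher on 8.53 and 11.9 CPM, and Barx1, another homeobox factor, at least 336-fold on 22.6 and 19.4 CPM. Both fat pad libraries held all 3 factors. Other genes at 0 in muscle were Bglap2, Prg2, Ly6d, Pla2g2e, Gchfr, Brinp3 and Krt79. Ly6d was higher in fat pad library 1 (21.4 and 6.18 CPM) and Krt79 in library 2 (5.57 and 15.9 CPM).

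Genes at 0 in both fat pad libraries were led by Tmem233, at 317 and 309 CPM in muscle, at least 11615-fold lower in the fat pad. Myod1, the muscle-determining factor, stood at 26.3 and 36.3 CPM in muscle and was at least 1161-fold lower in the fat pad. Fgf6, a growth factor of muscle, stood at 11.7 and 9.36 CPM in muscle (at least 390.1-fold lower), and Pitx3, a homeobox factor, at 6.19 and 5.72 (at least 221-fold). Both muscle libraries held these genes at like levels. Others among the most abundant at 0 in the fat pad were Trim72, Fitm1, Tceal5, Mettl21e and Prr29. Whether both tables were counted under the same rules is not given in the sources used here, which bears most on exact zeros.

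Of 19 myogenic and satellite cell genes 17 were called lower and 2 higher in the fat pad. Pax7, which marks satellite cells, stood at 0.157 and 0.178 CPM in fat pad libraries against 4.08 and 3.62 in muscle. Megf10, a receptor of satellite cells and other cells, went the other way, at 21.2 and 16.8 CPM in fat pad libraries against 2.86 and 2.37 in muscle. All 12 neuromuscular junction genes tested were called lower, and Chrne, the adult acetylcholine receptor subunit, stood at 0 and 0.0649 CPM in fat pad libraries against 16.9 and 21.8 in muscle. Of atrophy genes 10 of 15 were lower and 3 higher. Trim63, a muscle ubiquitin ligase, stood at 0.856 and 0.357 CPM in fat pad libraries against 469.8 and 314 in muscle. Foxo1, a factor that acts on such ligases, stood at 116 and 133 CPM in fat pad libraries against 47.4 and 28 in muscle, higher in the fat pad.

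Limb position genes went both ways. Of 30 tested 7 were called higher and 7 lower, below the shares of all genes on both sides, and 4 lower without muscle library 2 or with total counts. Pitx1, which specifies hind limb, stood at 21.7 and 13.8 CPM in fat pad libraries against 0.441 and 0.294 in muscle. Both fat pad libraries were high for it. Hoxa11 stood at 8.9 and 3.35 CPM in fat pad libraries against 0.661 and 0.548 in muscle. Hoxc10 stood at 8.65 and 6.93 CPM in fat pad libraries against 93.3 and 80.8 in muscle. Hoxc11 had 0 counts in both fat pad libraries and 5.53 and 5.97 CPM in muscle, at least 214-fold lower in the fat pad.

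In signalling, growth factor and myokine genes had 11 of 26 higher and 11 lower. Nrg4, a neuregulin secreted by fat, stood at 152 and 95.2 CPM in fat pad libraries against 1.65 and 2.9 in muscle. Metrnl, a secreted meteorin relative, stood at 291 and 288 CPM in fat pad libraries against 7.89 and 7.19 in muscle. Igf1, insulin-like growth factor 1, stood at 234 and 231 CPM in fat pad libraries against 41.3 and 46.3 in muscle, higher in both fat pad libraries. Igf2 stood at 3.76 and 3.59 CPM in fat pad libraries against 31.4 and 32.9 in muscle, lower. Vegfa, the main growth factor of vessels, stood at 12 and 13.9 CPM in fat pad libraries against 197 and 287 in muscle, for a log2 fold change of -4.22 ± 0.26 (SE; edgeR adjusted p = 3.33e-05). Mstn, myostatin, stood at 0 and 0.105 CPM in fat pad libraries against 132 and 127 in muscle. Sfrp4, a secreted Wnt modulator, stood at 228 and 88.9 CPM in fat pad libraries against 7.84 and 6.64 in muscle. The receptor Fzd7 stood at 2.62 and 2.34 CPM in fat pad libraries against 78.9 and 74 in muscle. Of 26 Wnt genes 4 were called higher and 11 lower, and of 25 TGF-beta and BMP genes 7 (28%) and 9 (36%). The TGF-beta and BMP shares were near those of all genes tested (32.9% and 30.5%).

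Genes of pain mediators and prostanoids, which bear on the joint pain named in the series title, had 15 of 26 members higher in the fat pad and 0 lower by edgeR. Lower calls numbered 3 without fat pad library 1, 3 with DESeq2 and 2 at an unadjusted p under 0.05. Hpgds, a prostaglandin D synthase, stood at 34.5 and 42.3 CPM in fat pad libraries against 2.27 and 2.74 in muscle. Ptgfr, the receptor for prostaglandin F, stood at 26.7 and 25.6 CPM in fat pad libraries against 3.55 and 1.57 in muscle. Ntrk2, the receptor for brain-derived neurotrophic factor, stood at 136 and 256 CPM in fat pad libraries against 15.1 and 25.7 in muscle. All 3 were higher in both fat pad libraries. Ptgs2, the inducible cyclooxygenase, was low and not called, at 0.413 and 0.0649 CPM in fat pad libraries against 1.43 and 1.17 in muscle, but was called lower without fat pad library 1, with a log2 fold change of -4.30.

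Steroid genes bear on the drug named in the fat pad titles, which blocks oestrogen synthesis from androgens. Cyp19a1, the aromatase it acts on, was listed with the fat pad counts only, at 0 counts in both libraries, which allows up to 0.0361 and 0.0282 CPM of total counts. Of steroid receptors and enzymes 9 of 19 were higher and 3 lower, or 1 lower with total counts. Hsd11b1, which regenerates active glucocorticoid, stood at 166 and 193 CPM in fat pad libraries against 7.51 and 6.17 in muscle, for a log2 fold change of 4.72 ± 0.22 (SE; edgeR adjusted p = 1.70e-05). Nr3c1, the glucocorticoid receptor, stood at 74.5 and 70.8 CPM in fat pad libraries against 157 and 199.6 in muscle, lower in the fat pad.

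Esr1, the oestrogen receptor alpha, stood at 22.8 and 16 CPM in fat pad libraries against 40.7 and 43.8 in muscle, lower in both fat pad libraries. Hsd17b12, an enzyme of oestradiol and fatty acid synthesis, stood at 279 and 329 CPM in fat pad libraries against 14.4 and 19.4 in muscle, higher in both fat pad libraries. Among oestrogen-responsive genes 10 of 14 tested members were called higher in the fat pad and 2 lower, with a median of 1.66. Igfbp4, a binding protein of insulin-like growth factors, stood at 292 and 264 CPM in fat pad libraries against 72.2 and 76.2 in muscle, and Igfbp5, of the same family, at 229 and 384 CPM in fat pad libraries against 1111 and 995 in muscle. The 2 binding proteins went opposite ways. Ltf, lactoferrin, which neutrophils also hold, stood at 146 and 20.1 CPM in fat pad libraries against 0 and 0.0979 in muscle and was high in fat pad library 1, as the neutrophil genes were. Both fat pad titles name the drug and no label gives its use or an untreated fat pad, so these values hold no test of the drug.

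Responsive genes were split. Among glucocorticoid response genes 6 of 16 tested members (37.5%) were called higher in the fat pad and 6 (37.5%) lower, near the shares of all genes tested. Angptl4, an inhibitor of lipoprotein lipase, stood at 210.1 and 455 CPM in fat pad libraries against 10.7 and 17.1 in muscle. Pdk4, which restrains pyruvate oxidation, stood at 33.3 and 39.2 CPM in fat pad libraries against 778 and 675 in muscle. The 2 genes went opposite ways. Of immediate early genes 6 of 21 (28.6%) were called higher and 8 (38.1%) lower, near the 32.9% and 30.5% of all genes tested. They were 10 higher and 7 lower with total counts and 2 and 8 with limma on log2(TPM + 1). Nr4a1, an early nuclear receptor, stood at 3.92 and 10.2 CPM in fat pad libraries against 244 and 296 in muscle.

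Clock genes varied within the fat pad. Of 19 tested 2 were called higher and 9 lower, against 5 higher without fat pad library 2 and 14 lower without fat pad library 1. Arntl, a core clock factor, stood at 2.87 and 21.6 CPM in fat pad libraries against 72.4 and 52.4 in muscle. Dbp, a clock output factor, stood at 96.2 and 6.61 CPM in fat pad libraries against 11.8 and 14.1 in muscle. Dbp was high in fat pad library 1 alone and was not called. It was called higher without fat pad library 2 (a log2 fold change of 2.88) and lower without fat pad library 1 (-0.98). Interferon response genes varied within muscle, where Ifit3 stood at 90.2 and 11 CPM against 41.9 and 23.2 in the fat pad, and the list's median log2 ratio of muscle library 2 over 1 was -2.07. Of these 19 genes 3 were called higher and 0 lower, against 15 higher without muscle library 1 and 6 lower without muscle library 2, and 7 higher with total counts. The lower calls also numbered 1 with DESeq2 and 1 at an unadjusted p under 0.05 in edgeR. Ifit3 took part in this, with log2 fold changes of 1.58 and -1.44, both called. Among the 3 higher genes with all libraries, Ifi27l2a stood at 2363 and 1498 CPM in fat pad libraries against 35.3 and 16.5 in muscle.

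Stress, cytokine and cell division genes were mostly at low or divided levels. Of heat shock genes 4 of 16 were called higher and 10 lower, or 2 higher without fat pad library 2 or without either muscle library. Hspb6, a small heat shock protein of muscle, stood at 37.8 and 51.4 CPM in fat pad libraries against 1167 and 1079.8 in muscle. Hsp90aa1, the inducible HSP90, stood at 135 and 189 CPM in fat pad libraries against 58 and 64.6 in muscle, higher in both fat pad libraries. Among inflammatory cytokine genes 9 of 16 tested members were called higher in the fat pad and 2 lower, while Il1b, Il1a, Il6 and Il10 were left out by the filter on low counts. Il6ra, the receptor of interleukin 6, stood at 44.8 and 32.8 CPM in fat pad libraries against 8.9 and 9.71 in muscle. Its signalling partner Il6st was lower, at 107 and 69.6 CPM in fat pad libraries against 254 and 319 in muscle. Among cell division genes 12 of 23 tested members were called higher in the fat pad and 3 lower. Tyms, thymidylate synthase, stood at 16.2 and 17.3 CPM in fat pad libraries against 1.56 and 1.76 in muscle, and the list's fat pad libraries differed, with a median log2 ratio of library 2 over 1 of -0.98.

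Genes at like levels in both tissues were few among common reference genes. Of 18 tested 8 were called higher and 7 lower. Actb, cytoplasmic actin, stood at 1887 and 3090.1 CPM in fat pad libraries against 363 and 359 in muscle. Tfrc, the transferrin receptor, stood at 9.27 and 4.95 CPM in fat pad libraries against 234 and 295 in muscle. Rps18, a ribosomal protein gene, was not called, at 81.2 and 80.8 CPM in fat pad libraries against 99.3 and 75 in muscle. Among the most abundant genes not called with a log2 fold change under 0.5 in size were Rsrp1, Ddx5, Cnbp, Ghitm, Eef1a1, Cox4i1, Uqcrc1 and Atp5g3. Ddx5, an RNA helicase, stood at 819 and 789 CPM in fat pad libraries against 721 and 786 in muscle, with a log2 fold change of 0.09 ± 0.21 (SE). A gene that was not called is not shown to be equal.

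**Figure D5:**
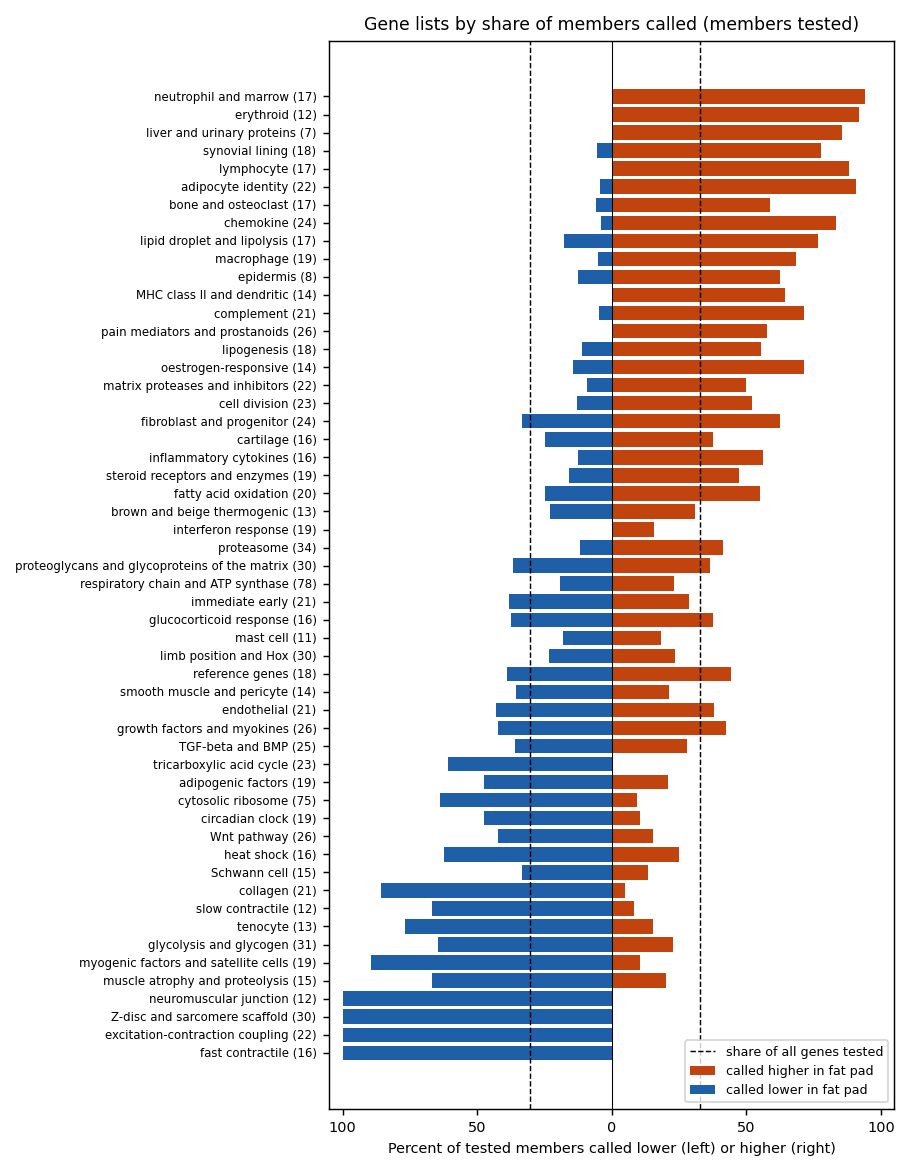
Percent of tested members called lower (blue, left) or higher (red, right) in the fat pad for 54 gene lists, with the number tested in brackets, ordered by median log2 fold change, and dashed lines at the shares of all genes tested (30.5% and 32.9%). The fast contractile, excitation-contraction coupling and Z-disc lists lie at the bottom with all members called lower. The neutrophil, erythroid, lymphocyte and adipocyte lists reach furthest to the right.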

How the data were processed

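RNA-seq of 4 libraries was used. The authors deposited whole-number counts per Ensembl gene for each tissue, not normalized, and TPM per library, per the file headers. Tools named in the submitters' processing notes, without roles, are RSEM 1.3.1, Bowtie2 and DESeq2 1.4.5, with the build GRCm39. Not given in the sources used here are the counting rules, strand setting, annotation and filters. The TPM columns followed the counts in the fat pad and not in muscle (correlation across genes of the log2 ratio of library 1 to library 2, counts against TPM, 1 and -0.231), so counts were used and TPM served as an alternative.

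The fat pad counts list 20516 genes and the muscle counts 17120. Of all symbols, 18661 were the authors' own and 2001 came from a names table. Counts were scaled by TMM, filtered with filterByExpr and fitted with edgeR 4.0.16 in R 4.3.3, on these 4 libraries with 1 term for tissue, with quasi-likelihood tests and Benjamini-Hochberg adjustment. The SE is the log2 fold change over the square root of F. The procedure was tested on simulated data. Counts of the 2 libraries of a tissue differed by more than counting noise (chi-square over its degrees of freedom 318 for the fat pad and 78.7 for muscle), so neither pair was a repeated deposit. Separate preparations of 1 RNA could differ as much. An exact permutation test of 2 against 2 cannot go below p = 0.333, so single genes were not tested that way. A count of 0 allows up to 0.0361 and 0.0282 CPM in the fat pad libraries and 0.0534 and 0.0512 in muscle, before TMM scaling.

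Exonic lengths and overlaps came from GENCODE M21. The members, 54 lists, 52 pairs and the rule for named genes were chosen with earlier results of these data known. That rule takes the 15 most abundant genes called at least 4-fold each way, the 10 most abundant not called, the 10 most abundant at 0 in 1 tissue, the 8 highest listed in 1 table only, and list members; some genes it takes are not reported here. Of 1150 list genes, 1079 were tested, 23 fell below the filter, 20 were in 1 table and 11 were unmatched. Unused per-sample columns numbered 0. Tried alternatives were DESeq2 1.42.0, limma 3.58.1 on log2(TPM + 1) and log2(TPM + 0.1), other scalings and filters, all 6 libraries, a replicate block, and leaving out each library.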

Additional observations from a re-analysis of the deposited data

How the results depend on the processing

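Counts of calls under the other scalings, filters and sample sets and under DESeq2 stayed within 1.5 times of 5116 higher and 4737 lower. Higher calls came to 3246 with limma on log2(TPM + 1) and to 3188 with log2(TPM + 0.1), against 5858 and 5783 lower, and the median moved by -0.37 and -0.48. The cause was not tested, and the muscle TPM columns do not follow the muscle counts. Without 1 library, higher calls ran from 3919 to 5049 and lower calls from 3726 to 4942, fewest without muscle library 2. The tissues share only library numbers (correlation of the deviations of same-numbered libraries -0.0293), and a replicate block gave 4586 higher and 4542 lower calls, ending those of Col8a1 and Rpl3 and giving 8 higher and 2 lower interferon genes and 2 higher heat shock genes. With 2 libraries a tissue, the spread rests on few samples, and levels of a few counts are imprecise.

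Of 176 called genes among the 201 named with a value, 163 kept direction and call under all 13 alternatives they could be fitted in, and 1, Cebpb, changed direction, under TPM. Calls lost on leaving out 1 library or under total-count scaling are given with the genes. Rpl3 lost its call without either muscle library, and Arntl with DESeq2. Except Cebpb, the log2 fold changes that changed sign were all of genes not called, and the cause was not tested. With total counts it was 0.10 for Atp5g3, 0.24 for Cd163, 0.49 for Eef1a1, 0.31 for Fxyd1, 0.41 for Rps18, 0.0056 for Uqcrc1. With limma on log2(TPM + 1) it was -0.82 for C3, -1.23 for Cebpb, -0.19 for Cnbp, -0.70 for Ddx5, -0.25 for Fasn, -0.48 for Hk1, 1.39 for Ifit3, -0.56 for Rsrp1, -0.30 for Slc2a1. With limma on log2(TPM + 0.1) it was -0.82 for C3, -1.24 for Cebpb, -0.20 for Cnbp, -0.70 for Ddx5, -0.25 for Fasn, -0.56 for Hk1, 1.42 for Ifit3, -0.56 for Rsrp1, -0.33 for Slc2a1. With the 1 CPM filter it was 0.018 for Eef1a1. Over the 4 fits without 1 library it ran from -0.13 to 0.78 for C3, from -0.054 to 0.26 for Cnbp, from -0.19 to 1.65 for Col2a1, from -0.98 to 2.88 for Dbp, from -0.042 to 0.048 for Eef1a1, from -0.37 to 0.037 for Fxyd1, from -1.44 to 1.58 for Ifit3, from -0.26 to 0.13 for Rps18, from -0.072 to 0.49 for Slc2a1, from -2.49 to 9.01 for Ucp1. Medians of 7 of the 54 lists changed sign under total-count scaling, the largest of them 0.446 in size, and of 3 with log2(TPM + 1). List counts that moved by over 1.5 times with log2(TPM + 1), where fewer members of some lists were tested, included higher calls of 3 for TGF-beta and BMP, 4 for limb position, 3 for cartilage, 4 for cytokine, 15 for interferon, 9 for lymphocyte, 7 for neutrophil, 4 for bone, 6 for oestrogen-responsive genes, and lower calls of 14 for TGF-beta and BMP, 13 for limb position, 9 for smooth muscle, 9 for Schwann cell, 7 for proteasome, 6 for steroid, 5 for matrix protease, 4 for macrophage, 4 for lipogenesis, 5 for thermogenic, 4 for slow contractile genes. Counts of 1 to 3 calls in a list also moved by 1 or 2 under other alternatives.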

Other observations

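The count tables did not list the same genes: 3552 were in the fat pad table alone and 156 in the muscle table alone, and they entered no test. Of the 3552, 969 had 0 counts in both fat pad libraries and 106 averaged at least 1 CPM of total counts, and together they held 0.0767% and 0.0536% of the counts. The most abundant of them were led by Lypd8l, at 11.2 and 51 CPM, higher in library 2. Epx, the eosinophil peroxidase, stood at 18.1 and 0.188 CPM, and Ear1, an eosinophil ribonuclease, at 13.5 and 0.705 CPM. Tnfrsf13c, a receptor of B cells, stood at 8.22 and 0.894 CPM, Calb2, the calcium binder calretinin, at 6.62 and 2.19, and Mcemp1 at 7.23 and 1.5. The odorant receptors Olfr643 and Olfr64 stood at 11.3 and 0.113 CPM and at 9.09 and 0.188 CPM. Except Lypd8l, these 8 genes were higher in fat pad library 1, the library with more globin and neutrophil RNA. The 8 highest genes of the muscle table alone were led by Myl10, a myosin light chain, at 2.13 and 2.51 CPM of total counts, and Ucn2, a urocortin, at 0.694 and 0.717, and the other 6 (Fam240a, Tppp2, Gpc2, Prr7, Akr1c18 and Amh) were under 1 CPM.

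Within a tissue, the fat pad libraries differed at least 4-fold for 109 genes higher in library 2 and 177 higher in library 1 (of 13552 genes that reached 100 counts in either library). The muscle libraries did so for 32 and 28 of 11825. These counts are of single libraries and have no test.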
